A study of Danio rerio with 19 samples.

Results

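DNA methylation was profiled in the testes of 10 zebrafish (Danio rerio), all the testis samples among the 19 gonad samples of the series, which also holds 9 ovary samples. Testes were chosen by their source label. The fish were of the AB strain, a laboratory line, were 90 days old, came from aquarium facilities and were reared under control conditions with no treatment. The assay was targeted bisulfite amplicon sequencing. Bisulfite converts cytosine that carries no methyl group, which then appears as T in the reads, whereas methylated cytosine still appears as C. The percentage of reads with C is the methylation level. A C-to-T difference in the DNA itself reads in the same way as an unmethylated cytosine, and the genotypes of these fish were not analysed here.

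In vertebrate DNA, methylation is found mostly on cytosines followed by guanine (CpGs). Most CpGs of the genome are highly methylated, whereas CpG-dense stretches at gene starts are often free of methylation, and methylation there goes with low transcription of many genes. A testis holds germ cells from spermatogonia to sperm together with Sertoli, Leydig and other somatic cells. A level between the extremes in such bulk DNA can come from a share of cells, of alleles or of DNA molecules, and these cannot be told apart here. The labelled tissue could not be checked against cell type markers, because only DNA methylation was measured.

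The series is about il1b and casp9, per its title. il1b is the gene of interleukin-1 beta, a cytokine that drives inflammation, and casp9 encodes caspase-9, which starts the mitochondrial pathway of apoptosis. The deposited files give coordinates of the GRCz11 genome build and no gene names. In RefSeq's gene table of a later assembly, il1b lies on chromosome 10, casp9 on chromosome 23 and cyp19a1a, the gene of gonadal aromatase, which turns androgens into estrogens, on chromosome 18. Amplicons are therefore named by chromosome, and whether each lies in a promoter, exon or intron was not determined.

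Of 380 positions listed in at least 1 testis, 154 had 10 or more reads in at least 5 testes, and these held 99.9% of all testis methylation calls. Positions less than 1000 bp apart formed 9 amplicons, with 2 of them on chromosome 5. Position 35126385 on chromosome 7 was just inside the rule with 5 testes and a mean level of 86.6%, as was 54607239 on chromosome 3 with 0%. Position 39636482 on chromosome 18 was just outside with 4 testes, all at 0%. Total calls per testis ran from 786467 to 1718107. The 10 samples are taken as 10 fish, which the labels number but do not describe further, so p-values measure the spread between these samples. Coverage was low at 13 of the 154 positions, with medians between 9.5 and 71.5 reads, less than 10% of the median of their own amplicon. Their mean levels were at most 0.477%, and 9 of them were at 0 in every testis that had them. They were kept out of amplicon means and steps, which left 141 CpGs.

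In single amplicons, a chi-square test of the read counts found no difference between some samples at a threshold of 0.05, and these are said to agree within counting noise, which gives a chi-square of about 1 per CpG. In the first chromosome 5 amplicon this held for 6 of 45 pairs of testes. Chi-square divided by the number of CpGs was 0.740 for testes 16 and 19, 0.879 for testes 3 and 7, 0.905 for testes 10 and 12, and at most 1.27 for the other pairs, each with testis 19. There, 3 testes also agreed within noise with an ovary, namely testis 4 with ovary 1, testis 9 with ovary 11 and testis 14 with ovary 18, with values of 1.06, 0.978 and 1.31. On chromosome 7 testis 10 and ovary 15 passed too, at 1.70 (chi-square p = 0.0840) with a median of only 72 reads in the ovary. In that thinly read amplicon 13 of 19 pairs of testes also agreed, but no pair there had 50 reads in each testis. On chromosome 3, 8 of 45 pairs agreed, none of them among the 36 pairs with at least 50 reads each. In the chromosome 10 amplicon testes 9 and 19 agreed (0.423). No other pair of testes with at least 50 reads each agreed in any amplicon. Over all amplicons together the closest testes, 7 and 12, differed with a chi-square per CpG of 18.1. Whether products or libraries were shared between these samples was not tested. Affected levels and step counts are given again without testes that matched an ovary, or with nearest pairs counted as 1 sample. In a nearest pair, each testis agreed within noise with the other and was its closest testis. These were testes 16 and 19, 3 and 7, and 10 and 12 in the first chromosome 5 amplicon, and 9 and 19 on chromosome 10. The other agreeing pairs of testes were kept as separate samples.

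The testis profile had a methylated and an almost unmethylated set of amplicons. Of the 141 CpGs, 80 (56.7%) had a mean level under 5%, here called near 0, and 65 of these lay under 1%. A further 19 CpGs (13.5%) had a mean of 95% or more, here called near 100. The remaining 42 included 20 CpGs between 5% and 20%, 17 between 80% and 95%, and 5 between 20% and 80%. Without testis 9, 97 CpGs were near 0. The amplicons on chromosomes 3 and 23 and the second on chromosome 5 held near-0 CpGs only. The chromosome 18 and 19 amplicons held 13 and 5 near-100 CpGs, and the chromosome 10 amplicon held the remaining 1.

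**Figure D1:**
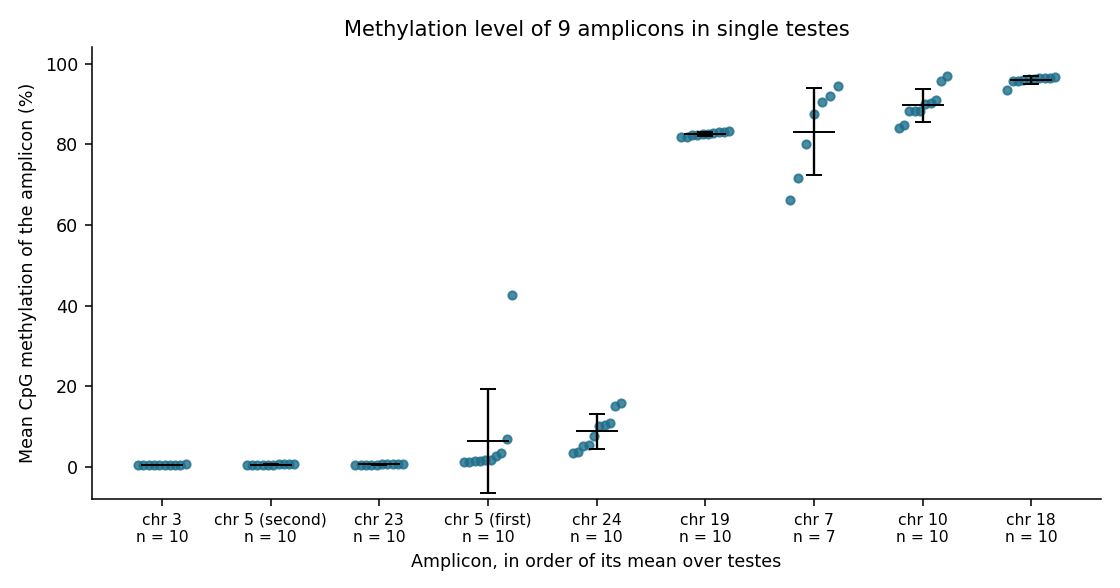
Mean methylation of each amplicon (percent, y axis) in single testes (points), with the mean and SD over testes in black, for 9 amplicons in order of their mean. The chromosome 18 amplicon is highest at 95.9%, and in the first chromosome 5 amplicon testis 9 stands at 42.5% while the other 9 testes lie at 6.86% or below.

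Amplicon means over testes rose from 0.522% to 95.9%. In ascending order they were chromosome 3, the second chromosome 5 amplicon, chromosome 23, the first chromosome 5 amplicon, chromosome 24, chromosome 19, chromosome 7, chromosome 10 and chromosome 18. Neighbours in this order were compared within fish by a two-sided exact sign-flip permutation test, in which the smallest p that 10 fish allow is 0.00195. The order came from these same levels, so the pairs and the direction of each comparison were set by the values tested. Of 8 such comparisons 3 passed an adjusted p of 0.05 (37.5%). The first chromosome 5 amplicon was above chromosome 23 in 10 of 10 testes (exact permutation adjusted p = 0.00781), and chromosome 19 was above chromosome 24 by 73.7 ± 4.35 points (SD, n = 10, exact permutation adjusted p = 0.00781). Chromosome 18 was above chromosome 10 by 6.23 ± 3.67 points in 9 of 10 testes (exact permutation adjusted p = 0.0104). The chromosome 10 mean is lowered by 1 CpG, 44956872, with a mean of 61.2%, while its other CpGs had means from 91.2% to 97.4%. The chromosome 19 mean, and with it its place in the order, is likewise lowered by 27019282, with a mean of 0.460%. Its other CpGs had means from 94.0% to 97.7%. The other 5 comparisons did not pass, and among them the first chromosome 5 amplicon and chromosome 24 differed by 2.37 ± 14.9 points (SD, n = 10, exact permutation adjusted p = 0.779). Without testis 9 the first chromosome 5 amplicon had a mean of 2.42% and 4 comparisons passed, as they did without testis 3 and at a coverage minimum of 5 reads. At minimums of 30 and 100 reads chromosome 7 had no value, and 4 of 7 comparisons passed.

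**Figure D2:**
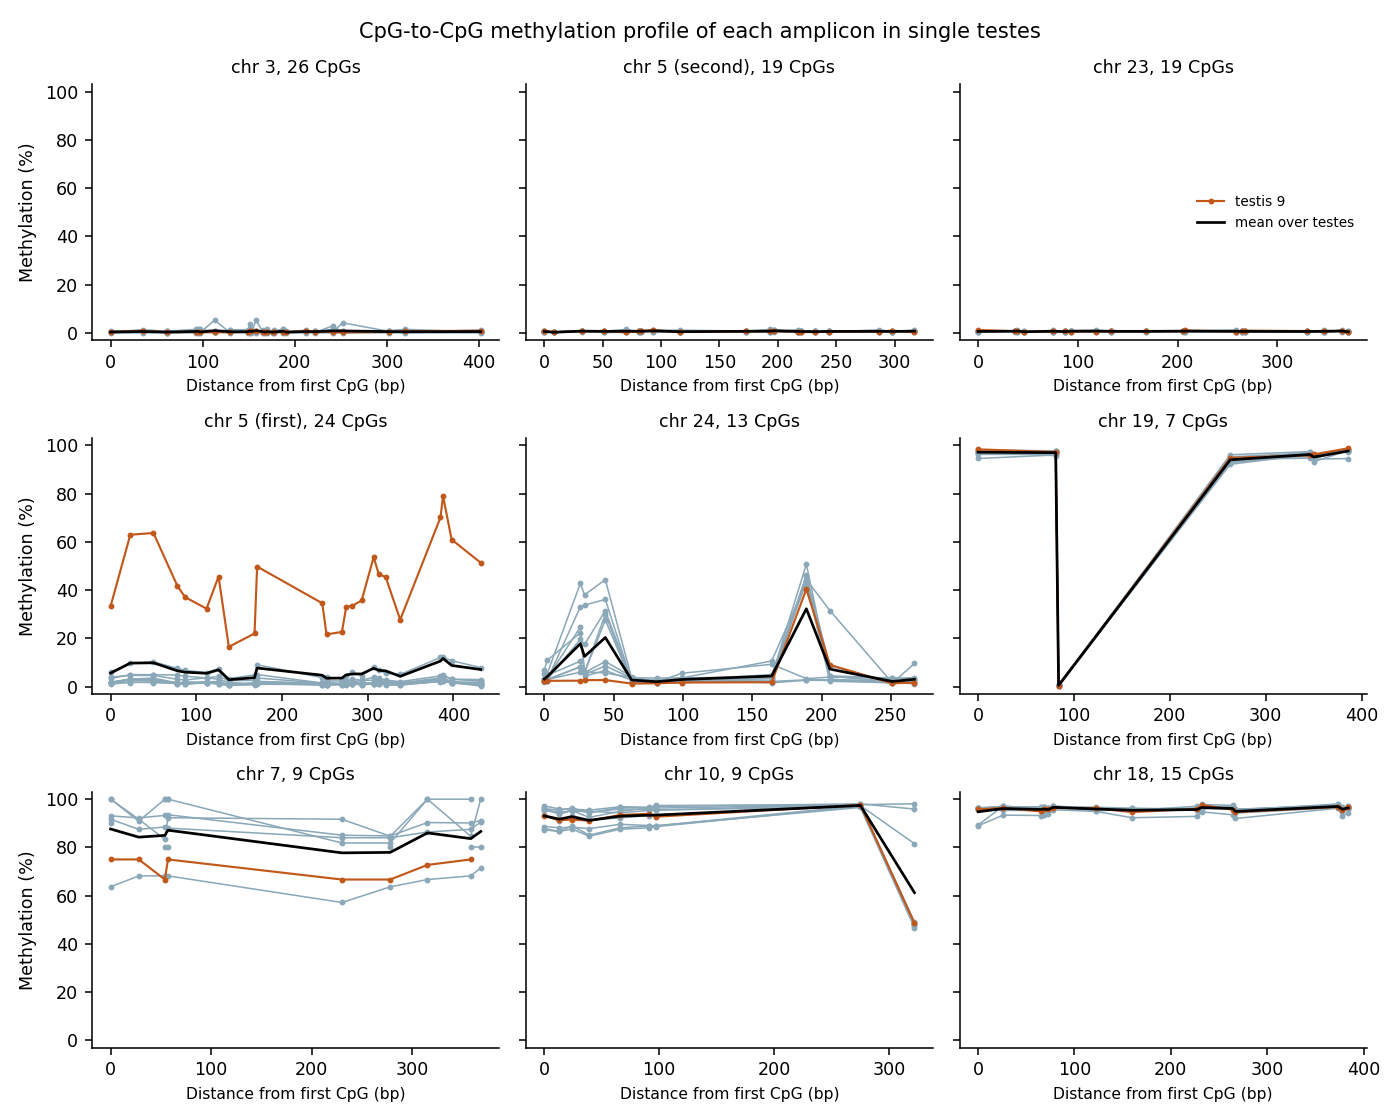
Methylation (percent, y axis) at each CpG against its distance from the first CpG of the amplicon (base pairs, x axis), 1 panel per amplicon, with thin lines for single testes, testis 9 in orange and the mean over testes in black. The mean line on chromosome 18 stays between 94.8% and 97.0%, that on chromosome 7 is uneven between 77.7% and 87.6%, and other features are the dip to 0.460% on chromosome 19, the peaks on chromosome 24, the drop at the last CpG on chromosome 10 and the high testis 9 in the first chromosome 5 amplicon.

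The CpG-to-CpG pattern was read as steps, the level of a CpG minus that of its left neighbour in the same fish. Of 132 steps between neighbouring CpGs 39 passed an adjusted p of 0.05 by the exact sign-flip permutation test (29.5%), 17 upward (12.9%) and 22 downward (16.7%). Most called steps were small. Only 7 of the 39 were 10 points or more, in the chromosome 10, 19 and 24 amplicons, and 10 were under 1 point. The median absolute step was 0.302 points among 48 neighbours up to 10 bp apart, 0.407 points among 71 neighbours 11 to 50 bp apart and 1.42 points among 13 neighbours over 50 bp apart. These distance classes mix amplicons, whose own median absolute step ran from 0.0836 points on chromosome 23 to 5.22 points on chromosome 24. A link between distance and step size was therefore not read from them. Of the 7 called steps of 10 points or more, 5 were in the middle class. The largest steps of the other classes, 96.5 and 93.6 points, both involved position 27019282 on chromosome 19.

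**Figure D3:**
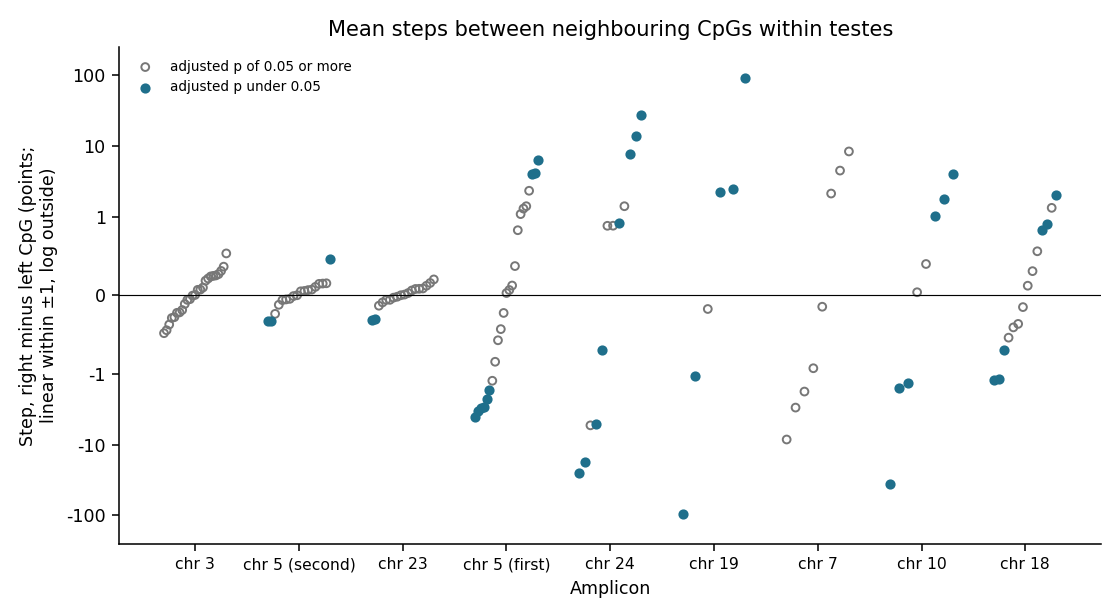
Mean step between neighbouring CpGs (right minus left, in points, y axis, linear within 1 point of 0 and logarithmic beyond) for the 132 steps of 9 amplicons, filled where the adjusted p was under 0.05. The 7 called steps of 10 points or more lie on chromosomes 10, 19 and 24, and no step on chromosomes 3 or 7 is filled. Steps on chromosome 7 rest on 5 to 8 testes, which limits how small their p can be.

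Chromosome 18 was evenly methylated from CpG to CpG. Its 15 CpGs lay between 39636145 and 39636529 and had means from 94.8% to 97.0%. The amplicon mean was 93.5% in the lowest testis, 96.2% in the median and 96.7% in the highest, or 95.9% ± 0.894 (SD, n = 10), at a median coverage of 8233 to 27408 reads per testis. Testis 14 was the lowest at 14 of the 15 CpGs, and the other 9 testes lay between 95.7% and 96.7%. The amplicon had 6 called steps of 14, the largest from 39636412 (94.9%) up to 39636518 (97.0%), which rose by 2.07 ± 0.897 points in 10 of 10 testes (exact permutation adjusted p = 0.0103). From 39636409 to 39636412, 3 bp apart, the level fell by 1.21 points in 10 of 10 testes (exact permutation adjusted p = 0.0103). The most variable CpG was 39636145, at the left end. It stood at 88.9% in testis 14 and 89.3% in testis 12 and between 95.7% and 96.5% in the other 8 testes. Testis 12 was also the lowest at 39636213, with 93.3%.

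Chromosome 19 had 6 highly methylated CpGs and 1 that was nearly free of methylation. The 6 CpGs, between 27019198 and 27019584, had means from 94.0% (27019461) to 97.7% (27019584). Position 27019282, with a mean of 0.460% ± 0.233 (SD, n = 10), was at 0.173% in the lowest testis, 0.437% in the median and 0.912% in the highest. Its left neighbour 27019279 lay 3 bp away at 97.0% ± 0.750 (SD, n = 10), so that the level fell by 96.5 ± 0.829 points within 3 bp in 10 of 10 testes (exact permutation adjusted p = 0.0103). It rose again by 93.6 ± 1.27 points to 27019461, 179 bp further (exact permutation adjusted p = 0.0103). The near-0 position was not a thinly read one, since its coverage was at least 4566 reads in every testis and its median of 14949 reads was close to that of its neighbour (14941). The bases around it in these fish were not read here. Because of it, the amplicon mean of 82.5% ± 0.505 (SD, n = 10) lies below each of the other 6 CpGs, and the median over CpGs was 96.0%. The amplicon mean ran from 81.8% to 83.3% over the testes, a smaller SD than on chromosome 18. On the log odds scale this mean had the smallest SD of the 9 amplicons (0.0350), but it mixes high CpGs with a near-0 position. For single CpGs the SD of the log odds ran from 0.191 (27019548) to 0.521 (27019282). On chromosome 18 it ran from 0.137 (39636223) to 0.480 (39636145), so both ends of the range were lower there. In points the median SD of single CpGs was 0.926 on chromosome 19 and 1.07 on chromosome 18. Which amplicon had the less variable CpGs thus depended on the measure.

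Chromosome 10, the chromosome of il1b, showed a graded block, an even CpG and a CpG with separate levels. The first 7 CpGs (44956550 to 44956647) had means from 91.2% to 93.4%, and within a testis they spanned at most 4.53 points. This block was described after its values were seen. Its mean was 87.2%, 87.8% and 88.6% in testes 14, 4 and 8 and between 92.4% and 96.5% in the other 7, so the lowest and the highest testis lay further apart than any CpGs of the block within a testis. From 44956647 the level rose by 3.999 ± 3.17 points over 178 bp to 44956825 in 10 of 10 testes (exact permutation adjusted p = 0.0103). There it was 97.4% ± 0.450 (SD, n = 10), between 96.6% and 98.1%. Testes 4, 8 and 14 did not stand apart at that CpG, with 97.3%, 96.6% and 97.1%.

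At 44956872, 47 bp further, the 10 testes fell into separate levels. It was at 46.7% to 49.1% in 7 testes (7, 8, 9, 10, 12, 14 and 19), 81.5% in testis 4, 95.9% in testis 3 and 98.1% in testis 16. The mean of 61.2% ± 21.6 (SD, n = 10) describes none of these. The level fell from 44956825 by 36.2 ± 21.3 points in 9 of 10 testes (exact permutation adjusted p = 0.0172), and testis 16 was the exception. Each value rested on at least 957 reads, and the widest 95% Wilson interval at this CpG was 3.16 points to either side, which covers counting error only. With testes 9 and 19 counted as 1 sample the amplicon mean was 89.8% (89.7% with all 10) and 6 of 8 steps were called, as before.

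**Figure D4:**
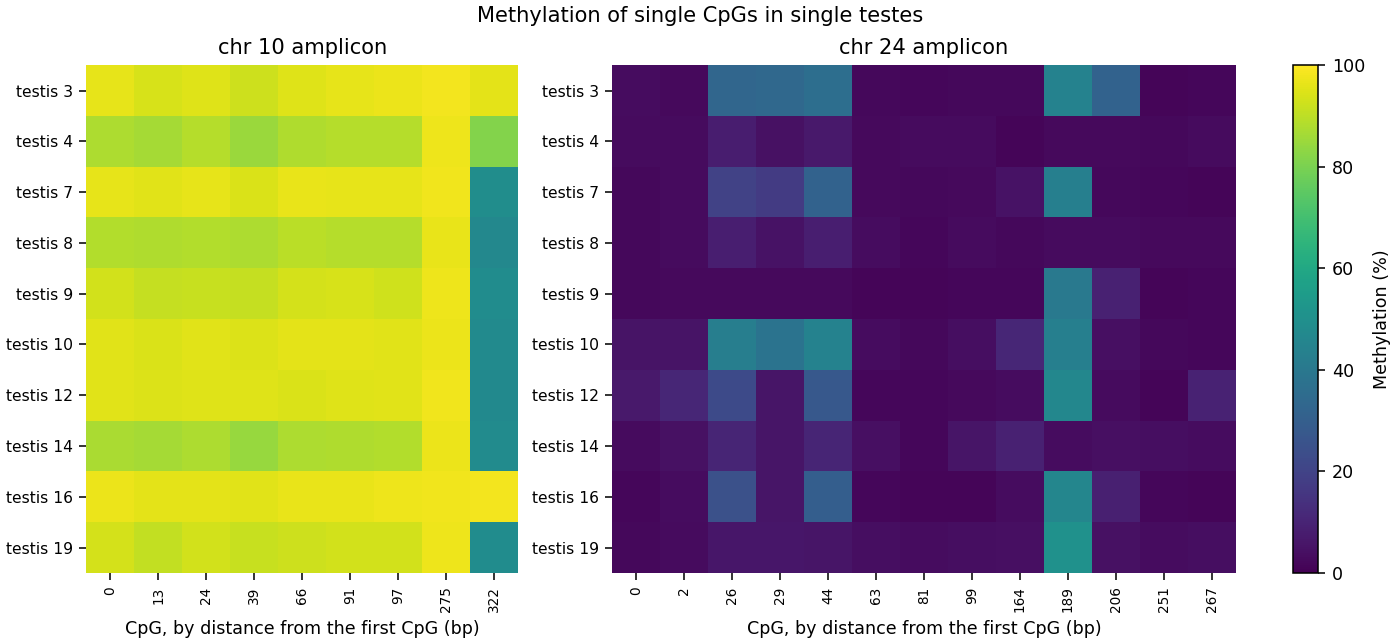
Methylation (colour, percent) of each CpG (columns, labelled by distance from the first CpG in base pairs) in each testis (rows) for the chromosome 10 and chromosome 24 amplicons. The last CpG on chromosome 10 is high in testes 3, 4 and 16 only, and on chromosome 24 the CpG at 189 bp (21640811) is near 0 in testes 4, 8 and 14 only.

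Chromosome 24 was low with a few raised CpGs, and these made up most of the differences between fish. The amplicon mean was 3.44% in the lowest testis (testis 4), 8.90% in the median and 15.9% in the highest (testis 10), or 8.80% ± 4.45 (SD, n = 10). The median over its 13 CpGs was 3.50%. There were 8 near-0 CpGs with means from 2.001% (21640703) upward, and 4 CpGs had SDs of 10 points or more. It had 8 called steps of 12, of which 4 were 10 points or more.

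The first raised stretch held 21640648, 21640651 and 21640666, within 19 bp. In testes 3 and 10 all of these were raised together, at 33.1%, 33.8% and 36.1% in testis 3 and at 42.8%, 38.0% and 44.3% in testis 10. Testis 7 followed with 19.7%, 17.5% and 31.5%. In testes 12 and 16 the outer CpGs were raised and the middle one was not, with 22.3%, 5.71% and 27.6% in testis 12 and 24.7%, 5.84% and 30.1% in testis 16. The other 5 testes stayed at 10.5% or below at all of them, and testis 9 was lowest with 2.44%, 2.67% and 2.69%. The level rose by 13.8 ± 12.6 points into this stretch from 21640624 and fell by 17.6 ± 15.2 points out of it to 21640685, each in 10 of 10 testes (exact permutation adjusted p = 0.0103). The 10 include testis 9, which had no raised stretch. It rose only from 2.36% to 2.44% and fell only from 2.69% to 1.23%. The step from 21640651 up to 21640666 was 7.88 ± 8.98 points in 9 of 10 testes (exact permutation adjusted p = 0.0234). The step from 21640648 to 21640651, 3 bp apart, was a fall of 5.33 ± 6.86 points in 7 of 10 testes that was not called (exact permutation adjusted p = 0.0516).

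The CpG at 21640811 was the highest of the amplicon and again showed separate levels. It was at 2.63%, 2.79% and 3.29% in testes 4, 8 and 14 and between 40.4% and 50.7% in the other 7, with a mean of 32.3% ± 20.4 (SD, n = 10). The level rose by 27.9 ± 20.6 points from 21640786 in 9 of 10 testes (exact permutation adjusted p = 0.0368) and fell by 25.01 ± 19.6 points to 21640828 in 8 of 10 (exact permutation adjusted p = 0.0418). The 9 include testes 4 and 8, which rose only from 1.55% to 2.63% and from 2.10% to 2.79%. The 8 include testis 4, which fell only from 2.63% to 2.53%. Both calls were lost when any one of testes 3, 7, 9, 10, 12, 16 or 19 was left out (exact permutation test, adjusted p between 0.0629 and 0.0787), and the second also without testis 4 (0.0543, exact permutation). With nearest pairs of testes counted as 1 sample the second had an adjusted p of 0.0529 (exact permutation). No testes agreed on chromosome 24, so there only the adjustment over all steps had changed. Testes 4, 8 and 14 are those that were lowest in the chromosome 10 block. At 21640828 testis 3 alone was raised, with 31.5% against 8.99% in the next testis.

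The first chromosome 5 amplicon (44944720 to 44945152, 24 CpGs) was low in 9 testes and intermediate in 1. Its mean was 1.23% in the lowest testis (testis 16), 1.68% in the median and 42.5% in testis 9. The other 9 testes averaged 2.42% ± 1.81 (SD, n = 9), up to 6.86% in testis 14. The mean over all 10 testes was 6.43% ± 12.8 (SD, n = 10), and with nearest pairs counted as 1 sample it was 8.55%. Without testes 4, 9 and 14, whose counts matched ovaries within noise here, it was 1.74%. The match of testis 9 and ovary 11 within counting noise bears on its level, and whether they shared a product was not tested. Testis 9 was the highest at 24 of 24 CpGs and ran from 16.5% at 44944858 to 79.0% at 44945108. Its median coverage of 2726 reads lay within the range of the other testes (433 to 7316).

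Over the 24 CpGs testis 9 and the mean of the other 9 testes had similar profiles. In the other 9 testes the CpG means ran from 1.33% to 4.17%, and across the CpGs their profile followed that of testis 9 (Pearson's r = 0.907 over 24 CpGs of the same amplicon, a description across sites that share reads). Of single testes, testis 14, the highest of the 9, followed it closest (r = 0.946) and testis 19, with the lowest coverage, least (r = 0.481). In the rest r ran from 0.699 (testis 8) to 0.863 (testis 12). Of 23 steps 9 were called. The largest rose by 6.32 points from 44945058 to 44945105 and was higher on the right in 10 of 10 testes (exact permutation adjusted p = 0.0103), and the largest fall was 4.09 points from 44944846 to 44944858, again in 10 of 10 (exact permutation adjusted p = 0.0103). Without testis 9 there were 8 called steps and the largest was 2.31 points. No step was called with the nearest pairs counted as 1 sample each (smallest exact permutation adjusted p = 0.0529). None was called without testes 4, 9 and 14 either (0.0543 by exact permutation). In both cases only 7 samples per step remained in this amplicon, and the smallest unadjusted p they allow is 0.0156 by exact permutation. The other agreeing pairs, each with testis 19, were not joined.

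The amplicons on chromosome 23, the chromosome of casp9, on chromosome 3 and the second on chromosome 5 (67992821 to 67993138) were close to 0 throughout. Their 64 CpGs had means from 0.237% to 0.907%, with a median of 0.588%. The mean over these CpGs was 0.509% in the lowest testis (testis 12) and 0.656% in the highest (testis 19). Cytosines that bisulfite missed, and sequencing errors, are counted as methylated reads too, and without a conversion control levels of this size were not read as methylation. The near-0 position on chromosome 19 lay within the same range.

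Chromosome 23 (24973689 to 24974060, 19 CpGs) had the smallest SD in points of the 9 amplicons, 0.621% ± 0.0518 (SD, n = 10), with testes from 0.566% to 0.727%. On the log odds scale the SD of its amplicon mean, 0.0818, was above that of chromosome 19, whose mean mixes high CpGs with a near-0 position. CpG means ran from 0.439% to 0.750%, and 2 of 18 steps were called, neither above 0.311 points. The larger, a fall from 24974054 to 24974060, starts at a CpG with a lower median coverage (6390 reads) than its neighbour (13712). The counts were 5268 against 15216 reads in testis 9, but 7298 against 7306 in testis 3. The most variable CpG of chromosome 23, 24973689, had 1.18% in testis 9 and at most 0.631% in the other testes. The second chromosome 5 amplicon had 0.610% ± 0.0836 (SD, n = 10). Position 67992829 was its lowest at 0.237%, below its neighbour 67992853 (0.706%) by 0.469 ± 0.121 points in 10 of 10 testes (exact permutation adjusted p = 0.0103). It also had a lower median coverage (6362 reads) than that neighbour (14370). The loss lay in testes 9, 10, 12, 16 and 19, for example 4165 against 10783 reads in testis 9. In the other testes the counts were close, for example 3553 against 3637 reads in testis 3. At its most variable CpG, 67992891, the lowest testis had 0.165%, the median was 0.665% and the highest had 1.38%.

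Chromosome 3 (54607068 to 54607470, 26 CpGs) had 0.522% ± 0.0901 (SD, n = 10), and none of its 25 steps was called by the exact permutation test (smallest adjusted p = 0.0839). Testis 14 had a median of only 19 reads here, far below the median of 8458 over testes. It was at the lowest level at 24 of 26 CpGs, mostly 0, and at 54607181 and 54607226 a single methylated read gave it 5.26%. At 54607181, the most variable CpG, the other 9 testes had at most 0.708%.

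Chromosome 7 (35126017 to 35126385, 9 CpGs) was methylated but thinly read, with a median of 11.5 reads per CpG over testes and 446 in testis 10, the deepest. It had levels in 7 testes, with 66.1% in the lowest (testis 16), 87.6% in the median and 94.3% in the highest (testis 3), or 83.1% ± 10.9 (SD, n = 7), and 81.6% without testis 10, whose counts matched ovary 15 within noise. CpG means ran from 77.7% (35126247) to 87.6% (35126017). None of its 8 steps was called by the exact permutation test. The largest were 8.45 points down from 35126074 to 35126247 and 8.43 points up from 35126295 to 35126332, each in 6 of 6 testes (exact permutation adjusted p = 0.0917). Their unadjusted p of 0.03125 is the smallest that sign flips of 6 testes allow in the exact permutation test. The steps of this amplicon rested on 5 to 8 testes, so the missing calls do not show that steps were absent. A single value rested on as few as 10 reads, with a 95% Wilson interval of up to 23.6 points to either side.

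**Figure D5:**
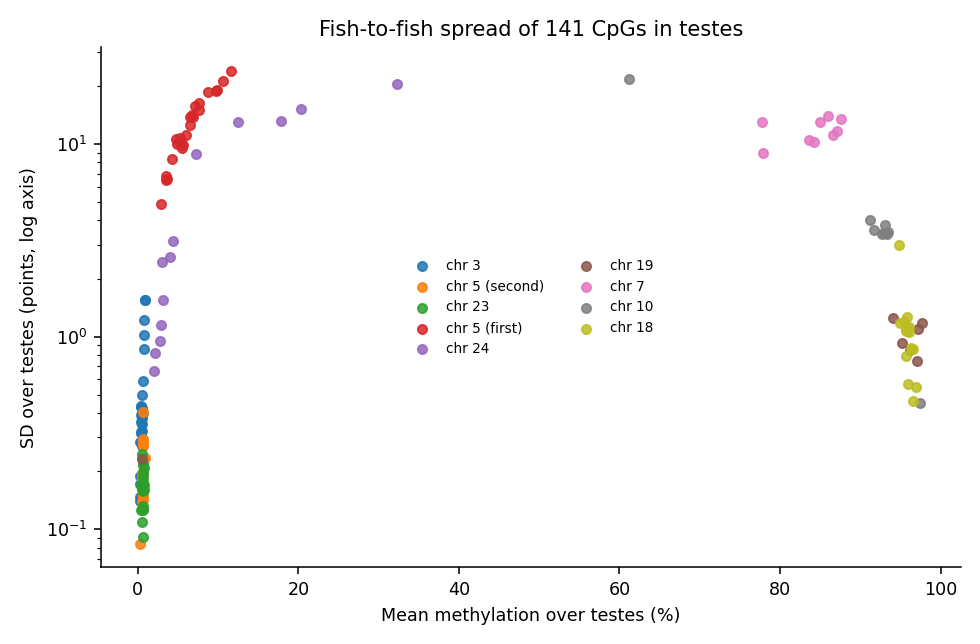
SD over testes (points, logarithmic y axis) against the mean level (percent, x axis) for 141 CpGs, coloured by amplicon. CpGs near 0 and near 100 have SDs mostly below 1 or 2 points, and SDs of 10 points or more belong to the first chromosome 5, chromosome 7, chromosome 10 and chromosome 24 amplicons.

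Spread between fish depended on the amplicon. SDs were under 1 point at 74 of 141 CpGs and 10 points or more at 29, of which 16 lay in the first chromosome 5 amplicon, 8 on chromosome 7 and 5 on chromosomes 10 and 24. In the first chromosome 5 amplicon testis 9 was highest at 24 of 24 CpGs, and the mean of the other 9 testes had an SD of 1.81 points. On chromosome 7 the SDs include counting noise, at a median of 11.5 reads. The median SD was 0.273 points among near-0 CpGs, 0.926 among near-100 CpGs and 12.1 among the rest. Of the rest, 17 CpGs lay in the first chromosome 5 amplicon and 9 on chromosome 7. Without testis 9 the near-0 CpGs numbered 97 in place of 80. SDs in points are compressed at both ends of the scale. Overdispersion, the beta-binomial measure of spread beyond read counting relative to the level, had medians per amplicon of 0.000343 on chromosome 23, 0.000562 in the second chromosome 5 amplicon, 0.00194 on chromosome 19, 0.00243 on chromosome 3, 0.00280 on chromosome 18, 0.0183 on chromosome 10, 0.0202 on chromosome 24, 0.0536 on chromosome 7 and 0.253 in the first chromosome 5 amplicon. The last of these values includes testis 9. In this moment estimate a testis at 0% or 100% adds no counting noise to subtract. Such levels rested on a median of 19 reads in testis 14 on chromosome 3 and on as few as 10 reads on chromosome 7. The values of these amplicons therefore still include counting noise. At single CpGs overdispersion reached 0.196 at 44956872 and 0.191 at 21640811.

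Amplicons also differed in a summary of how far their CpGs varied together. The share of the fish-to-fish variance that lay along 1 common axis was 99.9% in the first chromosome 5 amplicon, 95.2% on chromosome 7 (over 4 testes), 84.7% on chromosome 10, 72.1% on chromosome 18, 65.3% on chromosome 24, 52.9% on chromosome 3, 39.8% on chromosome 19, 36.4% in the second chromosome 5 amplicon and 24.02% on chromosome 23. These are descriptions, over 10 testes except on chromosome 7, and an axis can be carried by 1 testis (testis 9 in the first chromosome 5 amplicon) or by 1 CpG (44956872 on chromosome 10). On chromosome 18 testis 14 was the lowest at 14 of 15 CpGs. The median SD of single CpGs was only 0.162 points on chromosome 23 and 0.194 points in the second chromosome 5 amplicon. A low share there is not a sign of CpGs that varied apart. On chromosome 3 the most variable CpGs were 54607181 and 54607226, with SDs of 1.55 and 1.54 points and an overdispersion of 0. Single methylated reads in testis 14 gave these SDs, so the 52.9% includes counting noise and is not a sign of CpGs that varied together.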

How the data were processed

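Per the labels' protocols, gonad DNA was extracted with phenol and chloroform, bisulfite converted, built into amplicon libraries and sequenced on an Illumina MiSeq. Bismark with Bowtie2, FastQC 0.11.6 and Trim Galore 0.4.5, and the GRCz11 build, are given in the submitters' processing notes. The deposited files hold, per sample and position, counts of methylated and unmethylated reads, not normalized. The percent methylated, deposited by the authors, equalled methylated over all reads in 2381 of 2381 testis values (tolerance 1e-06). Coverage filters and conversion controls are not given in the sources used here. No molecular identifiers are mentioned, so reads are not independent molecules and intervals cover counting error only.

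A position needed 10 reads in a testis and 5 such testes, and a testis needed 50% of the CpGs of an amplicon. Levels were averaged over fish with equal weight. Steps and neighbouring amplicons were tested within fish by exact sign flips, with Benjamini-Hochberg adjustment over 132 steps and over 8 amplicon comparisons, and a threshold of 0.05. Ovaries entered only as partners in the comparison of samples by chi-square, which takes CpGs as independent. The text names each amplicon, its lowest, highest and most variable CpG and its largest steps. Other CpGs named (21640648, 21640651, 39636213, 54607226 and 67992829 among them) were picked after their values were seen. The members and lists were chosen with earlier results of these data known. No genome sequence was used here, so no sequence is shown. The work used scipy 1.17.1, numpy 2.4.6, pandas 2.3.3 and matplotlib 3.10.9 under Python 3.11.15.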

Additional observations from a re-analysis of the deposited data

Results flagged for a closer look

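Single testes stood apart from the other 9 by more than the 95% bound of Dixon's gap test, which chance passes in about 1 in 20 groups. In the first chromosome 5 amplicon testis 9 had a mean of 42.5% against 6.86% in the next testis. It stood apart at 24 of 24 CpGs, among them 44944846 (45.6%), 44944858 (16.5%), 44945058 (27.7%), 44945105 (70.1%) and 44945108 (79.0%). Testis 9 was also apart at 24973689 on chromosome 23, with 1.18%. Testis 14 was apart in the chromosome 18 amplicon with 93.5% against 95.7% in the next, and at 8 of its 15 CpGs, among them 39636409 (93.5%) and 39636412 (92.0%). At 54607181 on chromosome 3 testis 14 had 5.26%, from 19 reads. Testis 7 was apart at 27019584 on chromosome 19 with 94.6%, and testis 3 at 21640828 on chromosome 24 with 31.5%. In all, 48 of 141 CpGs had such a testis, 24 of them outside the first chromosome 5 amplicon. CpGs of 1 amplicon share reads, so these are not separate observations.

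Methylation calls were also listed at positions with too few testes for the profile. Of 226 positions left out, 58 had 10 or more reads in 1 to 4 testes. On chromosome 16 (54465006 to 54465259) testis 10 had 20 positions at a median of 504 reads with a mean of 82.1%. Within them, 54465184 stood at 0% in 100 reads (95% Wilson interval up to 3.70%) and 54465122 stood at 37.9% (95% Wilson interval 33.8% to 42.2%), while 54465126, 4 bp away, stood at 89.8%. On chromosome 3 (18047116 to 18047337) the same testis had 6 positions at a median of 54 reads with a mean of 81.9%, of which 18047120 had 51.9% (38.9% to 64.6%) and 18047337 had 49.1% (36.1% to 62.1%). On chromosome 5 (45000499 to 45000859) testis 19 had 18 positions at a median of 73 reads with a mean of 0.230%. On chromosome 2 (30684343 to 30684396) testes 3 and 8 had 4 positions with 50 to 147 reads, at 0% except for 1 read at 30684387 in testis 3. Whether these were targets was not determined.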

How the results depend on the processing

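Of 251 alternative values of the 13 amplicon levels and counts, 242 stayed within the spread between fish or within 1.5 times the count. Leaving out 1 testis cannot move a mean over fish by more than their SD, so for levels that outcome was fixed in advance. The first chromosome 5 amplicon counted as within the spread at 2.42% without testis 9, against 6.43% ± 12.8 (SD, n = 10) with it. The 242 are therefore no measure of how firm the levels are. With positions of low relative coverage kept, the means fell to 84.3% on chromosome 10, 76.6% on chromosome 18 and 73.3% on chromosome 19. With the median over CpGs, levels were 0.365% on chromosome 3, 96.0% on chromosome 19 and 3.50% on chromosome 24. Near-100 CpGs numbered 0 at a threshold of 98% and 29 at 90%. Called steps numbered 7 when 10 points were also required and 38 on the log odds scale. They numbered 26 with nearest pairs of testes counted as 1 sample. Without testes 4, 9 and 14 in the first chromosome 5 amplicon, an alternative chosen after seeing the data, they also numbered 26. In both, called steps of that amplicon went from 9 to 0. The 7 samples left there allow no unadjusted p under 0.0156 in the exact permutation test, so these lost calls do not show that the steps were absent. Leaving out 1 testis at a time gave 34 to 38 called steps, 78 to 97 near-0 CpGs and 2.42% to 7.01% in the first chromosome 5 amplicon, the lowest level and the 97 both without testis 9. The order of amplicons had 4 called neighbours in place of 3 without testis 3 or 9, at coverage minimums of 5, 30 and 100 reads, with CpGs covered in all 10 testes, with the median over CpGs and without testes 4, 9 and 14 in the first chromosome 5 amplicon. At coverage minimums of 30 and 100 reads, or with CpGs covered in all 10 testes, chromosome 7 had no value. There the order had 7 comparisons in place of 8. Of 198 alternative values of 12 single steps, 21 lost their call and none changed direction. The 12 include the largest steps up and down on chromosome 7, which were not called (exact permutation adjusted p = 0.0917). Their alternatives could lose no call, so the 21 of 198 makes the called steps look firmer than they are. Leaving out 1 of 10 testes raises the smallest p that sign flips allow from 0.00195 to 0.00391 in the exact permutation test. No paired analysis was possible because testes and ovaries share no replicate numbers, and the tests within fish pair CpGs or amplicons of the same testis.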
